A study of Homo sapiens with 12 samples.

Results

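RIP140 shRNA induction under all-trans retinoic acid (ATRA) was examined in 6 of the 12 libraries of a transcriptome series. They are the 3 ATRA libraries and the 3 ATRA+DOX libraries, chosen by their treatment labels. All 12 came from MOLM14, a human acute myeloid leukemia (AML) cell line of monocytic character, carrying an shRNA against RIP140 (the protein of the gene NRIP1) that doxycycline (DOX) switches on. The ATRA group received 1 µM ATRA for 48 h. The ATRA+DOX group received the same ATRA together with DOX at 50 ng/mL, replaced every other day, and the total time on DOX is not given in the sources used here. The untreated and DOX groups, 3 libraries each, had no ATRA and are used to show the DOX effect in its absence. Cells of all groups carried the same shRNA construct, uninduced in the ATRA and untreated groups, and all grew in Tet-free serum. No line with DOX and a non-targeting shRNA is in the design, so effects of DOX itself and of the shRNA cannot be told apart. The line carries a single shRNA, and the labels do not say whether it is 1 clone.

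RIP140 is a coregulator that binds ligand-activated nuclear receptors, among them the retinoic acid receptors, and mostly recruits repressors of transcription. ATRA binds those receptors, which sit on DNA with retinoid X receptors, and pushes many myeloid leukemia cells toward maturation. Maturing monocytic and dendritic cells gain chemokine receptors, lectins and class II antigen-presenting molecules and lose the granule proteins of their precursors.

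The 6 libraries held 9454825 to 16066674 counts each, and the 12 libraries 2685984 to 19358619. Levels are given as CPM, a gene's counts relative to its library's total after TMM scaling, and group levels as mean ± SD with n = 3. The first principal component of the 6 libraries held 44.3% of the variance. The ATRA libraries lay between −25.82 and −16.12 on it, and ATRA+DOX replicates 1, 2 and 3 at −0.76, 22.49 and 39.15, so replicate 1 was the nearest to the ATRA group. Mitochondrial ribosomal RNA made up 2.09 to 2.74% of the ATRA counts and 1.23 to 2.02% of the ATRA+DOX counts, so this measure of library make-up moved with the groups. The 13 myeloid identity markers summed to 1999.7 to 2155 CPM under ATRA and 2114 to 2281 CPM under ATRA+DOX. Of 21 lymphoid markers, 4 had no count in the 6 libraries, the T-cell genes CD2, CD3E, CD3G and CD8A, and that list summed to 446 to 475 CPM under ATRA and 419 to 441 CPM under ATRA+DOX, without overlap. Of 18 erythroid and megakaryocyte markers, 8 had none, and the sums were 21.2 to 24.5 CPM under ATRA and 21.1 to 25.7 CPM under ATRA+DOX. Of 18 fibroblast, endothelial and epithelial markers, 6 had none (DCN, CDH1, VWF, EPCAM, KDR and COL3A1), and that list summed to 207 to 217 CPM under ATRA and 251 to 299.7 CPM under ATRA+DOX. The part of these levels in the results was not tested. Fewer cells of a type and less RNA per cell cannot be told apart in bulk RNA.

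NRIP1, the shRNA target, lay at 38.5, 41.1 and 51.9 CPM under ATRA and at 15.9, 20.9 and 19.9 CPM under ATRA+DOX. The groups did not overlap, and NRIP1 fell to 43.0% of its ATRA level (log2 change −1.22 ± 0.13 SE, adjusted p = 6.49e-06). Here and below, adjusted p is from edgeR's quasi-likelihood test adjusted by Benjamini-Hochberg across the 16104 genes tested, and a pair of values in parentheses gives the log2 change ± SE of ATRA+DOX against ATRA and its adjusted p. Without ATRA, NRIP1 was at 57.3 ± 3.51 CPM in the untreated and 16.6 ± 2.24 CPM in the DOX libraries. The difference between the 2 DOX effects on NRIP1 did not pass (0.55, adjusted p = 0.276). NRIP1, on chromosome 21, overlaps antisense transcripts that were also counted. Whether counting used strand is not given in the sources used here, and without it such reads cannot be told apart.

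SLITRK5, which encodes a neuronal transmembrane protein, had the smallest adjusted p of the 16104 genes tested. It stood at 93.0, 90.7 and 101.2 CPM under ATRA and at 29.1, 24.3 and 25.4 CPM under ATRA+DOX (−1.85 ± 0.10, adjusted p = 1.08e-09). The groups were far apart, and without ATRA the DOX effect was −1.70 (adjusted p = 6.63e-09). MIR4500HG, a noncoding host gene that neighbours SLITRK5 on chromosome 13, was at 3.31, 3.40 and 4.34 CPM against 0.782, 0.562 and 1.52 CPM (−2.01 ± 0.35, adjusted p = 0.00143).

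LCOR, which encodes a ligand-dependent corepressor, stood at 74.9, 76.8 and 93.9 CPM under ATRA and at 51.5, 39.2 and 31.7 CPM under ATRA+DOX (−0.99 ± 0.17, adjusted p = 0.00144). Every ATRA library was above every ATRA+DOX library, and without ATRA the DOX effect was −1.27. NCOA7, a coactivator of estrogen and other nuclear receptors, was at 26.6, 27.2 and 29.98 CPM against 51.3, 43.0 and 42.2 CPM (0.71 ± 0.12, adjusted p = 0.00128). Without ATRA it lay at 28.8 ± 3.38 CPM in the untreated and 30.7 ± 5.18 CPM in the DOX libraries. Of 33 coregulator genes tested, NRIP1 and LCOR fell, NCOA7 rose and 30 did not pass, with a median log2 change of −0.02. The 5 genes of these paragraphs passed whichever library was left out.

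**Figure D1:**
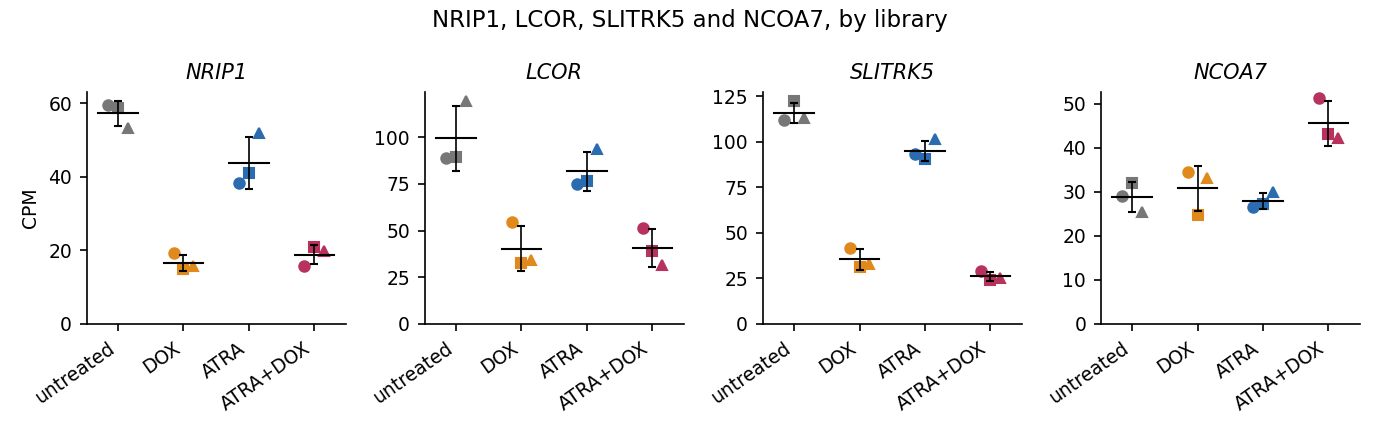
CPM of the genes shown in each library of the 4 groups (circle, square and triangle for replicates 1, 2 and 3), with group mean (line) and SD (bar). NRIP1 lay at 15.9 to 20.9 CPM in the ATRA+DOX libraries, below its 38.5 to 51.9 CPM in the ATRA libraries.

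Across the 16104 genes tested, 713 (4.43%) differed between ATRA+DOX and ATRA at an adjusted p under 0.05. With DOX, 304 (1.89%) were higher and 409 (2.54%) lower. Most changes were modest: 129 of the 713 reached a log2 change of 1 in size, 44 of them higher and 85 lower. The median log2 change was 0.47 among the genes that rose and −0.61 among those that fell, and over all genes tested it was -0.0002. The 3 libraries of each group did not overlap in 296 of the 304 and 406 of the 409, a separation seen as higher in 13.1% and as lower in 13.4% of all genes tested. Median exon length was 6062 bases among genes that fell, 3965 among those that rose and 4183 over all tested. The part of length in the calls was not tested.

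The number of calls depended on single libraries. Without ATRA replicate 1, 2 or 3 it was 363, 411 or 264, and without ATRA+DOX replicate 1, 2 or 3 it was 907, 329 or 346. Of the 713 genes, 220 were called in each of these 6 fits.

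Most class II antigen presentation genes tested fell. They encode the peptide-binding HLA-DR, HLA-DP and HLA-DQ pairs, the invariant chain CD74, the peptide editor HLA-DM, and the transactivator CIITA, which acts with the RFX complex and NF-Y at shared promoter elements. Of 13 tested, 10 fell, 0 rose and 3 did not pass, with a median log2 change of −1.23. NF-Y binds the letters CCAAT, and reference promoters that hold those letters are shown for 5 of the class II genes that fell. Each line gives the 150 bases before a RefSeq start (GRCh38.p14) on the gene's strand, 5′ to 3′, with CCAAT or its reverse complement ATTGG in capitals.
HLA-DRB1: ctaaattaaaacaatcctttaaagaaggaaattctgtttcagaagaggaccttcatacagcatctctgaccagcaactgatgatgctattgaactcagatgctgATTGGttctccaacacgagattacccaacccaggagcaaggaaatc
HLA-DQB1: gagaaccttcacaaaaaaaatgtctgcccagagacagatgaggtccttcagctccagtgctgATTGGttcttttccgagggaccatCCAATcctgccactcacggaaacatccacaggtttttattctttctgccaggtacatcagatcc
HLA-DQA1: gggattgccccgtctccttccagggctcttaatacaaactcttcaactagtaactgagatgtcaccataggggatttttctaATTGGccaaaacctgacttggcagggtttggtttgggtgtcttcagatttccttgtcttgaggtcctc
HLA-DPB1: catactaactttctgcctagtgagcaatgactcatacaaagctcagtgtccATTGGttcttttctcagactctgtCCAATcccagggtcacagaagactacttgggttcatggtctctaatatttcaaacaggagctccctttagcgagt
CD74: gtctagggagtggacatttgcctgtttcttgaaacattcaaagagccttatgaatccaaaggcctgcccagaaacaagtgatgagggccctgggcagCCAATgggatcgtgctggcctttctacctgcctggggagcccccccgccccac
The windows lie at chr6:32589849-32589998 (minus strand, HLA-DRB1), chr6:32666658-32666807 (minus strand, HLA-DQB1), chr6:32637256-32637405 (plus strand, HLA-DQA1), chr6:33075840-33075989 (plus strand, HLA-DPB1) and chr5:150412911-150413060 (minus strand, CD74). The class II list has 18 starts in the RefSeq promoter table, and 10 of those windows had CCAAT on either strand, as did 23.5% of all 35116 windows in the table. These starts belong to 13 genes, which include HLA-DOA and HLA-DRB5 (not among the genes tested) and not HLA-DRA or CIITA. Windows of HLA-DMA and HLA-DMB, which also fell, held CCAAT on either strand too and are not shown. A window of RFX5, which did not pass, also held it. The 2 windows of HLA-DPA1 held no match. These are reference letters, not those of the cell line, and a match is a description, not a binding site.

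HLA-DRA, the alpha chain of HLA-DR, stood at 43.7, 44.3 and 48.6 CPM under ATRA and at 12.5, 10.3 and 11.1 CPM under ATRA+DOX (−2.00 ± 0.17, adjusted p = 9.94e-07). Every ATRA library was far above every ATRA+DOX library. Without ATRA it was near 0, at 0.552 ± 0.124 CPM in the untreated and 0.582 ± 0.749 CPM in the DOX libraries. HLA-DRB1, its partner chain, was at 17.1, 17 and 16.2 CPM against 6.01, 3.69 and 4.55 CPM (−1.80 ± 0.25, adjusted p = 0.000166). HLA-DPA1 was at 7.56, 6.38 and 8.96 CPM against 2.71, 1.28 and 1.19 CPM (−2.07 ± 0.31, adjusted p = 0.000336). The 2 groups did not overlap for either gene. CD74, the chaperone of the pairs, was at 234, 206 and 210.4 CPM against 133, 102 and 109 CPM (−0.92 ± 0.11, adjusted p = 3.44e-05). CIITA was at 57.1, 49.0 and 56.0 CPM against 39.6, 35.4 and 38.0 CPM (−0.52 ± 0.10, adjusted p = 0.00279), also without overlap. The RFX subunits did not pass, with log2 changes of −0.12 for RFX5, 0.02 for RFXAP and 0.13 for RFXANK.

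The other class II calls were HLA-DQA1, HLA-DQB1, HLA-DPB1, HLA-DMA and HLA-DMB. HLA-DQB1 went from 16.1 ± 1.24 to 6.93 ± 0.964 CPM (−1.23 ± 0.20, adjusted p = 0.000684). HLA-DQA1 went from 1.16 ± 0.108 to 0.116 ± 0.12 CPM (−3.07 ± 0.62, adjusted p = 0.00537), with 1 ATRA+DOX library at 0. HLA-DPB1 had a change of −1.99 ± 0.41 (adjusted p = 0.00658), HLA-DMB of −1.58 ± 0.33 (adjusted p = 0.00724) and HLA-DMA of −0.76 ± 0.20 (adjusted p = 0.0321). Several of these calls rested on single libraries or settings. HLA-DPB1 missed the threshold without ATRA replicate 2 (−1.73) or ATRA+DOX replicate 2 (−1.85). HLA-DMB missed it without ATRA replicate 2 (−1.44) or with the mitochondrial ribosomal RNA share as a term (−1.39). HLA-DMA missed it without ATRA replicate 1 (−0.71), 2 (−0.74), 3 (−0.82), ATRA+DOX replicate 2 (−0.59) or 3 (−0.76), with scaling by library size alone (−0.78), with the mitochondrial ribosomal RNA share as a term (−0.68), with the 12 libraries thinned to equal depth (−0.62) or with the 6 libraries thinned to equal depth and fitted alone (−0.65). HLA-DQB1 missed it with the 12 libraries thinned to equal depth (−1.01), and so did CIITA with the 12 libraries thinned to equal depth (−0.44). Between 7 and 10 of the 13 genes passed when any 1 of the 6 libraries was left out, and 4 at equal depth. HLA genes have close copies, HLA-DPA1 overlaps HLA-DPB1 and CIITA overlaps DEXI on the opposite strand, so counting may have split or lost their reads. Of 17 class I presentation genes, which handle peptides from inside the cell, 1 rose, the proteasome subunit PSMB9 (0.45 ± 0.09, adjusted p = 0.00623), and 0 fell. PSMB9 missed without ATRA replicate 3 (0.38) or ATRA+DOX replicate 3 (0.37).

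**Figure D2:**
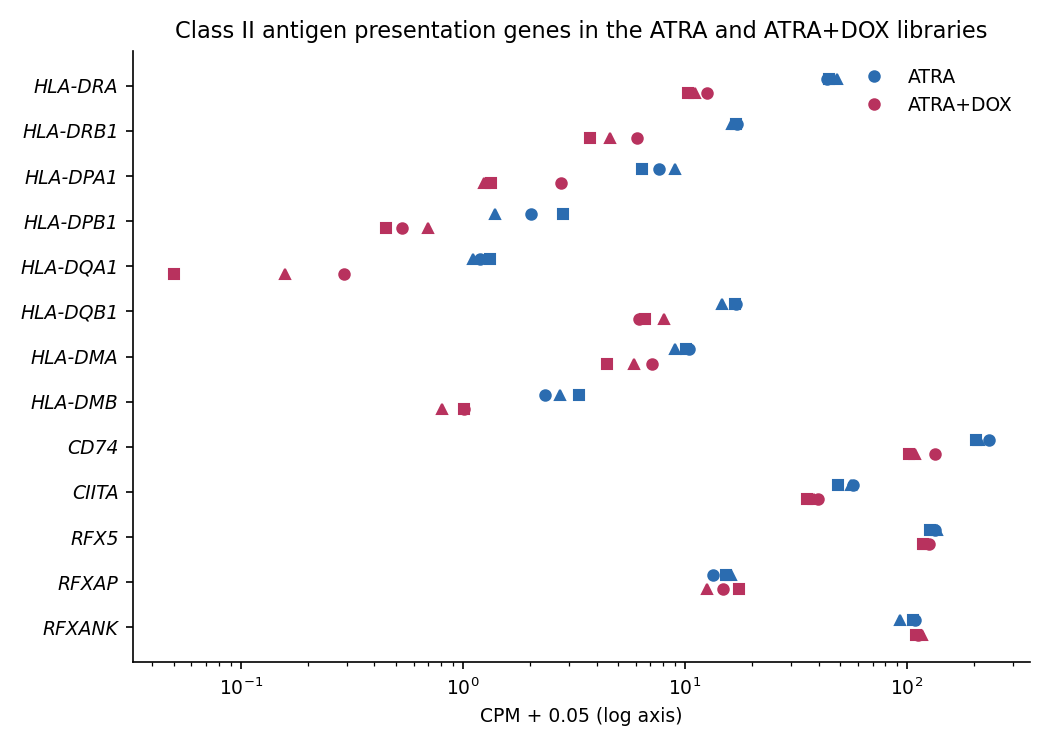
CPM plus 0.05 on a log axis for the class II genes tested, in the 3 ATRA and 3 ATRA+DOX libraries (circle, square and triangle for replicates 1, 2 and 3). For HLA-DRA the ATRA libraries lie at 43.7 to 48.6 CPM and the ATRA+DOX libraries at 10.3 to 12.5 CPM, while the points of the 3 RFX genes lie close together.

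CD209 (DC-SIGN), a lectin of dendritic cells and macrophages, stood at 133, 111 and 129 CPM under ATRA and at 47.0, 28.2 and 36.6 CPM under ATRA+DOX (−1.73 ± 0.16, adjusted p = 2.23e-06). The gap between the groups was wider than the spread within either. CLEC10A, a galactose-binding lectin of conventional dendritic cells, was at 10.7, 11.1 and 11.2 CPM against 2.77, 3.69 and 3.69 CPM (−1.71 ± 0.24, adjusted p = 0.000144). Of 14 dendritic cell genes tested, 4 fell, 0 rose and 10 did not pass, with a median of −0.30. With any of the 6 libraries left out, 0 passed as higher and 2 to 3 as lower. The other calls were CD83, a maturation marker (−0.60 ± 0.14, adjusted p = 0.0161), and IRF8, a transcription factor of monocytes and dendritic cells (−0.32 ± 0.09, adjusted p = 0.0366). CD83 missed without ATRA replicate 1 (−0.54), 3 (−0.58) or ATRA+DOX replicate 2 (−0.47) or with the 12 libraries thinned to equal depth (−0.60). IRF8 missed without ATRA replicate 1 (−0.29), 2 (−0.31), 3 (−0.36), ATRA+DOX replicate 1 (−0.33), 2 (−0.27), 3 (−0.36), untreated replicate 1 (−0.32), 2 (−0.32) or DOX replicate 3 (−0.32), with no filter on low counts (−0.31) or with the replicate block (−0.32).

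CCR2, the receptor for CCL2, stood at 107, 96.9 and 121 CPM under ATRA and at 58.7, 47.9 and 54.0 CPM under ATRA+DOX (−1.01 ± 0.13, adjusted p = 7.27e-05). CCR1, a receptor for CCL3 and other inflammatory chemokines, was at 108, 91.6 and 111 CPM against 68.2, 58.4 and 64.5 CPM (−0.70 ± 0.10, adjusted p = 0.000213). For these 2 genes every ATRA library was above every ATRA+DOX library. CX3CR1, the fractalkine receptor of patrolling monocytes, was at 41.3, 37.4 and 49.3 CPM against 25.3, 24.5 and 29.2 CPM (−0.70 ± 0.11, adjusted p = 0.00067). CX3CR1 did not overlap between groups either, and these 3 receptor genes lie on chromosome 3. CCR1 overlaps CCR3 on the opposite strand. Of 15 chemokine and receptor genes tested, 5 fell, 0 rose and 10 did not pass, with a median of −0.06. Another that fell was CMKLR1, the chemerin receptor (−1.47 ± 0.33, adjusted p = 0.012), which missed without ATRA replicate 1 (−1.38), 3 (−1.32), ATRA+DOX replicate 2 (−1.503) or 3 (−1.42) or in DESeq2 (−1.47).

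The mature monocyte and macrophage list split. Of 22 tested, 5 fell, 2 rose and 15 did not pass, with a median of −0.26. When 1 of the 6 libraries was left out, 1 to 3 passed as higher and 3 to 7 as lower. FCGR2B, the inhibitory Fc receptor for IgG, was at 26.6, 20.9 and 29.3 CPM against 9.56, 6.82 and 12.8 CPM (−1.42 ± 0.18, adjusted p = 7.27e-05). LILRB1, an inhibitory receptor for class I molecules, was at 23.6, 21.1 and 24.6 CPM against 12.6, 7.47 and 9.97 CPM (−1.20 ± 0.16, adjusted p = 0.000121). CD36, a scavenger receptor for oxidized lipids, was at 31.3, 33.4 and 36.3 CPM against 22.4, 21.5 and 18.1 CPM (−0.69 ± 0.11, adjusted p = 0.00061). None of these 3 overlapped between groups. ITGAM, the CD11b chain often used to follow ATRA maturation, went from 75.1 ± 8.65 to 55.9 ± 1.69 CPM (−0.43 ± 0.10, adjusted p = 0.019), and CSF1R, the receptor for macrophage colony-stimulating factor, from 26.8 ± 5.22 to 18.7 ± 1.67 CPM (−0.53 ± 0.14, adjusted p = 0.0405). ITGAM missed without ATRA replicate 1 (−0.41), 3 (−0.35) or ATRA+DOX replicate 2 (−0.41), with the mitochondrial ribosomal RNA share as a term (−0.34) or with the 12 libraries thinned to equal depth (−0.38). CSF1R missed without ATRA replicate 1 (−0.39), 3 (−0.50), ATRA+DOX replicate 1 (−0.51), 2 (−0.48), 3 (−0.59), untreated replicate 2 (−0.52) or DOX replicate 3 (−0.53), with scaling by library size alone (−0.55) or in DESeq2 (−0.52).

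S100A9 and S100A8, the subunits of calprotectin, were the members that rose. S100A9 stood at 1.21, 0.85 and 0.675 CPM under ATRA and at 5.29, 3.93 and 3.47 CPM under ATRA+DOX (2.18 ± 0.31, adjusted p = 0.000196). The groups did not overlap, and both lay below the 25.0 ± 1.08 CPM of the untreated and 31.7 ± 9.48 CPM of the DOX libraries. S100A8, named after its values were seen, was at 1.14, 0.531 and 1.06 CPM against 3.19, 1.93 and 1.41 CPM (1.26 ± 0.35, adjusted p = 0.0455). It missed without ATRA replicate 1 (1.5), 2 (1.047), 3 (1.33), ATRA+DOX replicate 1 (0.83), 2 (1.37), untreated replicate 1 (1.27) or 2 (1.27), with scaling by library size alone (1.25), with the 6 libraries fitted alone (1.25), with the 12 libraries thinned to equal depth (0.72) or with the 6 libraries thinned to equal depth and fitted alone (1.29).

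Genes that retinoids induce went in both directions. Of 20 retinoid-induced effectors tested, 3 rose, 2 fell and 15 did not pass, with a median of 0.13. RARB, a retinoic acid receptor and direct target of its own family, stood at 1.78, 1.49 and 1.64 CPM under ATRA and at 3.79, 5.30 and 5.31 CPM under ATRA+DOX (1.52 ± 0.29, adjusted p = 0.00355). Each ATRA+DOX library was above each ATRA library, at a low level. PTGES, a prostaglandin E synthase, was at 54.7, 55.6 and 53.5 CPM against 115, 188 and 180.0 CPM (1.56 ± 0.14, adjusted p = 2.23e-06). SLPI, an inhibitor of neutrophil proteases, was at 4.26, 3.51 and 3.08 CPM against 18.9, 10.5 and 8.35 CPM (1.80 ± 0.25, adjusted p = 0.000161), with ATRA+DOX replicate 1 the highest. RARB overlaps TOP2B on the opposite strand.

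NGFR, the low-affinity neurotrophin receptor, moved the other way. It stood at 11.8, 9.03 and 14.2 CPM under ATRA and at 2.10, 2.73 and 3.58 CPM under ATRA+DOX (−2.09 ± 0.25, adjusted p = 0.000102). The fall was to 23.4% of the ATRA level, without overlap. NGFR had no count in the 6 libraries without ATRA, which allows up to 0.0408 CPM over them (3 counts, counting error only). CYP26B1, an enzyme that breaks retinoic acid down, was at 44.0, 35.8 and 43.5 CPM against 27.4, 27.3 and 27.5 CPM (−0.59 ± 0.11, adjusted p = 0.00189). DHRS9, a retinol dehydrogenase on the synthesis side, was at 42.6, 42.9 and 38.6 CPM against 84.2, 62.5 and 65.1 CPM (0.77 ± 0.11, adjusted p = 0.000193). Neither overlapped between groups, and they were the only genes of 10 tested retinoid enzymes and binding proteins that passed. Without ATRA, DHRS9 lay at 20.8 ± 0.818 CPM in the untreated and 58.2 ± 6.62 CPM in the DOX libraries (DOX effect 1.48, adjusted p = 3.24e-07). Of 18 retinoid and partner receptor genes, RARB and the orphan receptor NR2F1 (0.36 ± 0.10, adjusted p = 0.0365) rose and 0 fell. NR2F1 missed without ATRA replicate 1 (0.39), 2 (0.34), 3 (0.36), ATRA+DOX replicate 2 (0.32), 3 (0.36), untreated replicate 1 (0.36) or 2 (0.36), with no filter on low counts (0.37), with the mitochondrial ribosomal RNA share as a term (0.28) or with the 12 libraries thinned to equal depth (0.33).

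**Figure D3:**
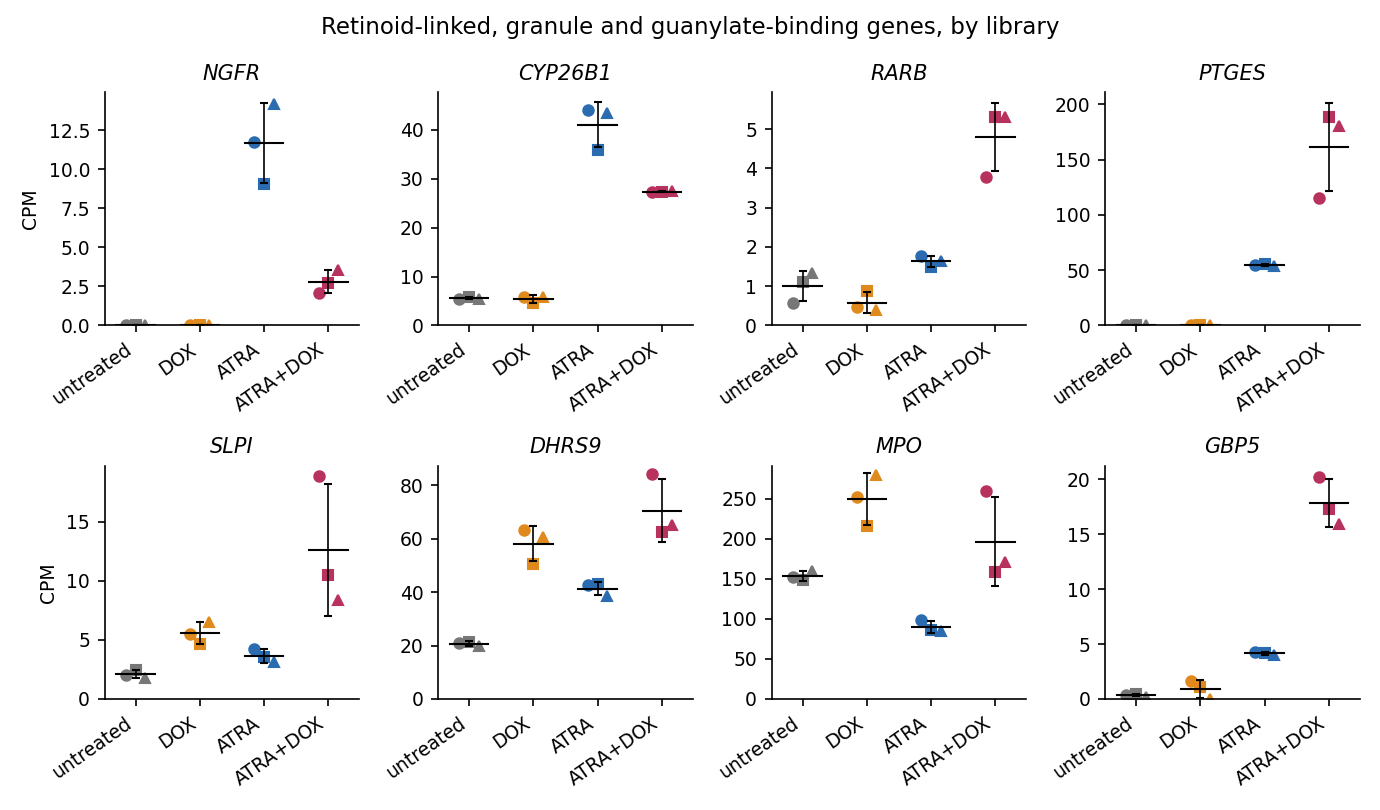
CPM of 8 genes in each library of the 4 groups (circle, square and triangle for replicates 1, 2 and 3), with group mean (line) and SD (bar). NGFR lies at 2.10 to 3.58 CPM in the ATRA+DOX libraries, below 9.03 to 14.2 CPM in the ATRA libraries, and at 0 without ATRA.

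Azurophil granule genes mark promyelocytes and early monocytic cells. MPO, myeloperoxidase, stood at 98.6, 86.1 and 84.9 CPM under ATRA and at 259.9, 158 and 171 CPM under ATRA+DOX (1.13 ± 0.14, adjusted p = 4.2e-05). All ATRA+DOX libraries were above the ATRA range, replicate 1 the most. Without ATRA it lay at 153 ± 5.96 CPM in the untreated and 249.5 ± 32.0 CPM in the DOX libraries. DEFA4, a neutrophil defensin, was at 0.318, 0.212 and 0.193 CPM against 2.04, 2.17 and 2.17 CPM (3.03 ± 0.47, adjusted p = 0.000609). Of 16 granule genes tested, these 2 rose, 0 fell and 14 did not pass, with a median of 0.13. In DOX against untreated, where 2446 genes (15.2%; 8.08% higher and 7.1% lower) were called, 11 of the same genes rose and 0 fell.

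GBP5, an interferon-induced guanylate-binding protein that promotes inflammasome assembly, stood at 4.32, 4.14 and 4.05 CPM under ATRA and at 20.3, 17.3 and 15.9 CPM under ATRA+DOX (2.10 ± 0.21, adjusted p = 4.69e-06). The groups were far apart, a 4.28-fold difference. Of 46 interferon-stimulated genes tested, 2 rose, GBP5 and the proapoptotic XAF1 (0.47 ± 0.09, adjusted p = 0.005), 0 fell and 44 did not pass, with a median of 0.07. XAF1 missed with the 12 libraries thinned to equal depth (0.30). GBP5 overlaps an antisense transcript that was also counted.

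In some called genes the ATRA+DOX replicates differed among themselves. EGR1, a zinc-finger transcription factor of the immediate-early response, stood at 16.9, 12.8 and 13.6 CPM under ATRA and at 9.80, 63.6 and 60.9 CPM under ATRA+DOX (1.59 ± 0.39, adjusted p = 0.0233). Replicate 1 was below all ATRA libraries and replicates 2 and 3 were far above them. DUSP1, a phosphatase of MAP kinases, was at 5.34, 5.95 and 4.82 CPM against 2.46, 44.2 and 47.6 CPM (2.52 ± 0.57, adjusted p = 0.0131). TRIB1, a pseudokinase that directs C/EBP alpha to degradation, was at 26.9, 21.5 and 26.3 CPM against 35.6, 105 and 114 CPM (1.75 ± 0.26, adjusted p = 0.000237). IER3, a stress-induced gene, was at 2.86, 2.23 and 2.699 CPM against 3.31, 14.7 and 14.96 CPM (2.03 ± 0.39, adjusted p = 0.00324). In each of these, ATRA+DOX replicate 1 lay closer to the ATRA libraries than replicates 2 and 3 did. By a rule set after the values were seen (called higher, under 1.5-fold of the ATRA mean in replicate 1 and at least 2-fold in replicates 2 and 3), there were 10 such genes: EGR1, JUN, KLF2, KLF6, IER3, TRIB1, DUSP1, PPP1R15A, RGS2 and ID2. On the lower side, 8 genes met the mirrored rule.

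TRIB1 and IER3 passed whichever library was left out. The other 8 genes did not. Without ATRA+DOX replicate 2, EGR1 (1.23), JUN (1.91), KLF2 (0.89), KLF6 (0.67), DUSP1 (2.17), PPP1R15A (0.86), RGS2 (1.00) and ID2 (0.85) missed the threshold. Without ATRA+DOX replicate 3, EGR1 (1.31), JUN (1.68), KLF2 (1.04), KLF6 (0.64), DUSP1 (2.10), PPP1R15A (0.78), RGS2 (1.12) and ID2 (0.87) missed the threshold. Without ATRA replicate 1, EGR1 (1.75), JUN (1.89), KLF2 (1.25), KLF6 (0.97), DUSP1 (2.52) and ID2 (1.01) missed the threshold. Without ATRA replicate 2, EGR1 (1.53), KLF2 (1.16) and KLF6 (0.79) missed the threshold. Without ATRA replicate 3, EGR1 (1.55), JUN (2.14), KLF2 (1.21), KLF6 (0.82), DUSP1 (2.46), RGS2 (1.20) and ID2 (1.04) missed the threshold. With the mitochondrial ribosomal RNA share as a term, EGR1 (1.39), JUN (1.70), KLF6 (0.78) and DUSP1 (2.03) missed it. With the 12 libraries thinned to equal depth, KLF6 (0.76) and ID2 (0.70) missed it. With scaling by library size alone, KLF6 (0.82) missed it. In DESeq2, EGR1 (1.64) and KLF6 (0.88) missed it. IER3 and IER3-AS1 overlap on opposite strands, and IER3-AS1 rose with it (2.34 ± 0.40, adjusted p = 0.00118).

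**Figure D4:**
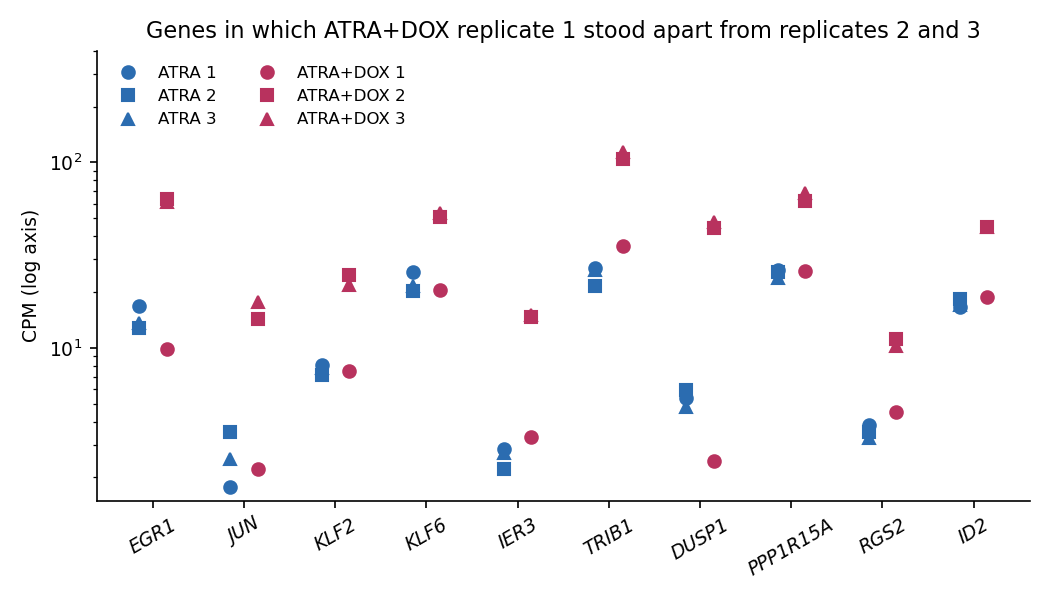
CPM on a log axis of the 10 genes chosen for this split, in the 3 ATRA and 3 ATRA+DOX libraries. For DUSP1, ATRA+DOX replicate 1 lies at 2.46 CPM and replicates 2 and 3 at 44.2 and 47.6 CPM.

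Several of the 14 largest decreases without overlap fell outside the gene lists. ADAM28, a membrane metalloprotease of lymphocytes and myeloid cells, was at 12.6, 12.6 and 12.5 CPM against 3.19, 2.97 and 3.04 CPM (−2.03 ± 0.22, adjusted p = 7.86e-06). FCGR2C, an Fc receptor gene nearly identical to FCGR2B, was at 25.0, 23.5 and 28.5 CPM against 7.46, 4.90 and 6.18 CPM (−2.04 ± 0.19, adjusted p = 2.23e-06), and reads of this pair may be split between them. LGALS2, a galectin, was at 3.31, 2.55 and 3.76 CPM against 0.902, 0.723 and 0.867 CPM (−1.94 ± 0.37, adjusted p = 0.00325). As the rule for naming them required, the 2 groups did not overlap for any of these 3. CLEC17A, a lectin for mannose and fucose, fell from 10.5 ± 2.96 to 3.45 ± 0.798 CPM (−1.63 ± 0.26, adjusted p = 0.000599). SYT2, a synaptotagmin, fell from 13.8 ± 1.60 to 4.33 ± 0.684 CPM (−1.70 ± 0.24, adjusted p = 0.000162) and overlaps PPP1R12B on the opposite strand. Among the 14 largest increases without overlap, SELENOP, a selenium-transport protein, was at 12.8, 14.02 and 14.1 CPM against 36.1, 32.7 and 24.9 CPM (1.21 ± 0.13, adjusted p = 7.86e-06). CD52, a GPI-anchored surface antigen of lymphocytes and monocytes, was at 1.40, 1.06 and 1.25 CPM against 5.47, 3.45 and 4.12 CPM (1.80 ± 0.27, adjusted p = 0.000332). Neither overlapped between groups, which that rule also required. Without ATRA the DOX effects were 1.29 (adjusted p = 0.000189) and 1.85 (adjusted p = 0.000125). SELENOP overlaps CCDC152 and CD52 overlaps UBXN11 on the opposite strand.

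RIP140 is known in muscle and fat as a restraint on oxidative metabolism. Of 76 nuclear respiratory chain genes, 3 rose (NDUFB9, NDUFC1 and ATP5MC3, named after their values were seen) and 0 fell, with a median of 0.12. Over all genes tested, 1.89% rose and 2.54% fell. Of 21 alternatives, the call ended in 14 for NDUFB9, 11 for ATP5MC3 and 3 for NDUFC1. Between 0 and 3 rose when 1 of the 6 libraries was left out. In DOX against untreated, 46 of the 76 rose, beside 8.08% of all genes tested. Of 13 mitochondrially encoded mRNAs, 5 fell and 0 rose, with a median of −0.48. MT-ND4, a complex I subunit, was at 2110.0, 2267 and 2859 CPM against 1901, 1263 and 998 CPM (−0.80 ± 0.17, adjusted p = 0.0082), with ATRA+DOX replicate 1 nearest to the ATRA libraries. MT-ND4 missed without ATRA replicate 3 (−0.66), ATRA+DOX replicate 2 (−0.73) or 3 (−0.61). The others that fell were MT-ND1, MT-CO1, MT-CYB and MT-ATP6. Of 21 alternatives, the call ended in 8 for MT-ND1, 7 for MT-ATP6, 4 for MT-CO1 and 4 for MT-CYB. Of the 13 genes, 0 passed by edgeR without ATRA replicate 3 or without ATRA+DOX replicate 2 or 3, and 9 passed without ATRA+DOX replicate 1. The share of mitochondrial ribosomal RNA, given above, moved with the groups in the same direction, and with that share as a term 2 of the 13 passed. That share is itself mitochondrial RNA and did not overlap between the groups. A fit with it can thus remove part of such a fall.

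UCP2, a mitochondrial carrier of the uncoupling family, was at 144, 136 and 122.9 CPM against 97.1, 82.5 and 94.8 CPM (−0.56 ± 0.09, adjusted p = 0.000408). Of 30 fatty acid oxidation genes it alone fell, and DECR1, which reduces unsaturated acyl-CoA, alone rose (0.36 ± 0.07, adjusted p = 0.00584). DECR1 missed without ATRA replicate 3 (0.34) or with the 12 libraries thinned to equal depth (0.33). SLC2A3, a high-affinity glucose transporter, was at 66.1, 60.0 and 65.5 CPM against 96.9, 85.5 and 97.8 CPM (0.55 ± 0.09, adjusted p = 0.000805) and missed with the 12 libraries thinned to equal depth (0.37). Of 27 glycolysis genes, 4 rose and 2 fell, with a median of 0.17: SLC2A3, SLC2A5, PFKP and ALDOC were higher, and HK2 and PGAM1 lower. With any of the 6 libraries left out, 1 to 3 passed as higher and 0 to 1 as lower. Of 21 alternatives, the call ended in 16 for ALDOC, 14 for SLC2A5, 7 for HK2, 7 for PGAM1, 3 for PFKP and 1 for SLC2A3. Of 34 sterol and fatty acid synthesis genes, 3 rose and 3 fell, with a median of 0.12. Among them, DHCR7, SREBF1 and SCD were higher and INSIG2 and ELOVL5 lower. When 1 of the 6 libraries was left out, 0 to 3 passed as higher and 1 to 2 as lower. Of 21 alternatives, the call ended in 10 for ELOVL5, 6 for SREBF1, 5 for DHCR7, 2 for SCD and 1 for INSIG2.

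Of 40 DNA replication genes, 37 replication histone genes, 36 ribosome biogenesis genes and 67 cytosolic ribosomal protein genes, 0 passed by edgeR, with medians of -0.0028, −0.21, 0.15 and 0.11. At an unadjusted p under 0.05 by edgeR the counts were 5, 1, 10 and 2, beside 18.9% of all genes tested, and DESeq2 called 1, 0, 1 and 0. The groups did not overlap, as higher, in 1, 0, 19 and 4 of these genes, beside 13.1% of all genes tested. As lower, they did not overlap in 5, 1, 0 and 0, beside 13.4%. In DOX against untreated, 33 of the histone genes fell, with a median of −1.30, beside 7.1% of all genes tested that fell. Of 37 mitosis genes, ASPM, a spindle pole protein, fell (−0.44 ± 0.09, adjusted p = 0.00872) and missed without ATRA replicate 3 (−0.36) or with the 12 libraries thinned to equal depth (−0.36). CDKN1A, the p21 inhibitor of cyclin-dependent kinases, was at 404, 389.8 and 359.6 CPM against 511, 494 and 549 CPM (0.43 ± 0.09, adjusted p = 0.00513), the only call among 28 p53 target genes. It missed without ATRA replicate 3 (0.38). BIK, a BH3-only death promoter, was at 51.7, 47.6 and 50.1 CPM against 71.4, 77.4 and 76.9 CPM (0.59 ± 0.10, adjusted p = 0.00087), without overlap. Of 35 apoptosis regulators, 3 rose and 2 fell: MCL1, BIK and CASP8 were higher, and CASP2 and CFLAR lower. With any of the 6 libraries left out, 1 to 4 passed as higher and 0 to 3 as lower. Of 21 alternatives, the call ended in 12 for MCL1, 7 for CASP8, 7 for CASP2, 4 for CFLAR and 0 for BIK.

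Of 31 myeloid transcription factor genes, 4 rose (EGR1, KLF2, KLF6 and ID2, described above) and 2 fell, IRF8 and RUNX2. When 1 of the 6 libraries was left out, 0 to 4 passed as higher and 1 as lower. RUNX2, a factor of bone and immune lineages, was at 47.1, 39.5 and 48.7 CPM against 27.2, 28.1 and 25.1 CPM (−0.75 ± 0.11, adjusted p = 0.000168). Of 23 integrin and adhesion genes, 4 rose and 2 fell: ITGA5, ITGB1, ICAM3 and PECAM1 were higher, and ITGAM and ITGB7 lower. With any of the 6 libraries left out, 2 to 3 passed as higher and 1 to 2 as lower. Of 21 alternatives, the call ended in 11 for ITGB1, 7 for PECAM1, 5 for ITGAM, 0 for ITGA5, 0 for ICAM3 and 0 for ITGB7. ITGB7, a beta chain of gut-homing integrins, was at 70.6, 58.6 and 71.0 CPM against 37.2, 37.5 and 44.5 CPM (−0.76 ± 0.10, adjusted p = 0.000144). ITGA5, the alpha chain of the fibronectin receptor, rose from 171 ± 4.53 to 253 ± 13.6 CPM (0.56 ± 0.09, adjusted p = 0.000508). ICAM3, a leukocyte adhesion molecule, rose from 55.3 ± 6.65 to 89.4 ± 7.23 CPM (0.69 ± 0.10, adjusted p = 0.000213). The 2 groups did not overlap for RUNX2, ITGB7, ITGA5 or ICAM3.

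The comparison was set beside DOX against untreated, which shares no library with it. Of the 713 genes, 611 (85.7%) had the same sign in both, as did 68.8% of all genes tested. Of the 304 that rose, 284 had the same sign, 153 were also called higher without ATRA and 0 were called lower. Of the 409 that fell, 327 had the same sign, 136 were also called lower and 4 were called higher. The 289 genes called the same way in both are 40.5% of those called under ATRA and 11.8% of those called without it. The 4 called in opposite directions were HLA-DQB1, TXNIP (a thioredoxin-binding arrestin), MS4A3 and CST3 (cystatin C), named after their values were seen. Of 21 alternatives, the call in ATRA+DOX against ATRA ended in 6 for MS4A3, 4 for CST3, 1 for HLA-DQB1 and 0 for TXNIP. Mitochondrial ribosomal RNA was 2.54 to 4.60% of untreated and 1.02 to 2.18% of DOX counts, without overlap. A fit with this share can thus take up part of the DOX effect. With that share as a term, the calls between those groups went from 2446 to 77. Without untreated replicate 3, DOX replicate 1, DOX replicate 2 or DOX replicate 3 they were 731, 4326, 659 and 1462.

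The difference between the 2 DOX effects was itself tested, as an interaction in the same model. It was called for 43 genes (0.267% of those tested), 36 with a lower and 7 with a higher DOX effect under ATRA. Of the 43, 24 were called lower and 5 higher in ATRA+DOX against ATRA, and 14 were not called there. The count of 43 fell to 11, 16 or 16 without untreated replicate 1, 2 or 3, to 23 or 10 without ATRA replicate 1 or 3 and to 21 without ATRA+DOX replicate 2. It rose to 747 without DOX replicate 1 and to 129 without ATRA+DOX replicate 1. Called whichever of the 12 libraries was left out were 9: FAM43A, CD74, HLA-DQB1, HERPUD1, SAMHD1, TXNIP, OLMALINC, PTAFR and CHCHD7. Of these, HLA-DQB1, OLMALINC and PTAFR missed at equal depth. Genes of this list other than CD74 and HLA-DQB1 were named after their values were seen. CD74 without ATRA was at 77.4 ± 3.42 CPM in the untreated and 90.6 ± 15.3 CPM in the DOX libraries (interaction −1.15, adjusted p = 0.00251 by edgeR). FAM43A was at 117, 114 and 112 CPM under ATRA and at 59.4, 65.0 and 63.2 CPM under ATRA+DOX, and at 32.6 ± 2.12 and 34.0 ± 2.45 CPM in the untreated and DOX libraries (interaction −0.96, adjusted p = 0.002 by edgeR). The groups with ATRA did not overlap.

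SAMHD1, a dNTP triphosphohydrolase, was at 1140.0, 1054 and 1179 CPM under ATRA and at 710.5, 703 and 792 CPM under ATRA+DOX, and at 108 ± 5.63 and 127 ± 4.69 CPM in the untreated and DOX libraries (interaction −0.84, adjusted p = 0.00386 by edgeR). It overlaps TLDC2 on the opposite strand. HERPUD1, a component of endoplasmic reticulum-associated degradation, was at 142, 144 and 160.0 CPM under ATRA and at 92.5, 84.1 and 89.9 CPM under ATRA+DOX (interaction −0.77, adjusted p = 0.00386 by edgeR). OLMALINC, a noncoding gene, had the reverse sign, at 22.1, 18.6 and 21.8 CPM under ATRA and at 37.8, 42.5 and 47.2 CPM under ATRA+DOX, and at 42.5 ± 2.19 and 44.2 ± 4.90 CPM in the untreated and DOX libraries (interaction 0.99, adjusted p = 0.00472 by edgeR). The ATRA libraries were thus the lowest of the 4 groups for OLMALINC. The interaction of HLA-DRA (−2.67, adjusted p = 0.0245 by edgeR) rests on very low counts without ATRA. It was called in 6 of the 12 fits that left out a library, missed without untreated replicate 1, 2 or 3, ATRA replicate 1 or 3, or DOX replicate 2, and ran from −3.14 to −0.97.

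**Figure D5:**
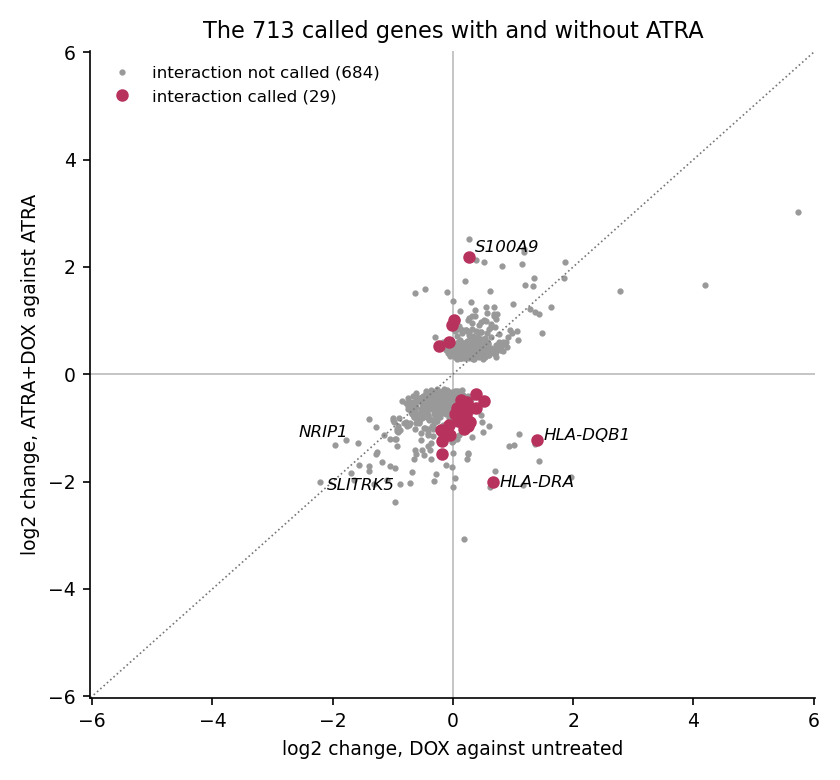
Log2 change in ATRA+DOX against ATRA (vertical) and in DOX against untreated (horizontal) for the 713 called genes, with the called interaction genes marked. NRIP1 lies at −1.22 on the vertical and −1.77 on the horizontal axis, and CD74 at −0.92 and 0.23.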

How the data were processed

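Total RNA of 12 libraries, 3 in each of 4 groups that the labels name, was sequenced as paired ends. The authors deposited 1 table of read counts per gene. FastQC, STAR, HTSeq and GRCh38 are named in the submitters' processing notes, and no versions with them. The strand option and the gene annotation used for counting are not given in the sources used here. The counts as deposited were whole numbers for 61487 gene identifiers, and 23 empty columns of the table were not used.

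Counts were filtered with filterByExpr, scaled by TMM and fitted with edgeR 4.0.16 (R 4.3.3) by quasi-likelihood, with 1 model of 4 group means over the 12 libraries, which share 1 estimate of spread. This left 16104 genes. Genes with an adjusted p (Benjamini-Hochberg over all 16104) under 0.05 were called. CPM are TMM-scaled, and errors of log2 changes are the change divided by the square root of F. The p-values measure the spread between replicate libraries of 1 line. The replicate numbers alone do not say whether these were separate cultures. The script was tested on simulated data.

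Genes outside the lists were named where they were among the 14 largest called changes per direction at a mean of at least 2 CPM and without overlap between the groups. For the 14 largest changes per direction, separation of the groups was thus fixed by the rule. List members were named by up to 6 per list (all of lists of up to 15 tested genes). Exceptions are marked where they occur, and some called list members are counted but not reported here by name. The comparison, lists and named genes were chosen with earlier results of these data known. Alternatives were other scalings, no filter, the compared groups alone, a replicate block, a mitochondrial ribosomal RNA term, thinning to equal depth, DESeq2 1.42.0 and leaving out each library.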

Additional observations from a re-analysis of the deposited data

Results flagged for a closer look

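The DOX effect differed with and without ATRA for 43 genes by edgeR's interaction test (adjusted p under 0.05), the only kind of flag that groups of 3 allow here. The values are the DOX effect under ATRA minus that without ATRA, on the log2 scale. Of 13 class II genes tested, 4 were called, each with a lower DOX effect under ATRA: HLA-DRA at −2.67, HLA-DQB1 at −2.63, CD74 at −1.15, and CIITA at −0.76. CD1D (−0.98) and the chemokine receptor CCR2 (−1.19) also had a lower one. S100A9 (1.91), BCL2 (0.82) and OLMALINC (0.99) had a higher one.

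The remaining values were as follows: PTAFR (−1.57), FAM43A (−0.96), HERPUD1 (−0.77), SAMHD1 (−0.84), TXNIP (−0.93), CHCHD7 (−0.75), CST3 (−0.75), NECTIN1 (−1.0), KCTD12 (−1.06), IL10RB-DT (−0.80), WNT6 (0.93), MS4A3 (−1.02), NFATC1 (−0.70), FGL2 (−1.30), VANGL1 (0.67), ITGA6 (−0.90), MS4A6A (−1.16), ALDH2 (−0.84), MMP2 (−0.91), CHST2 (−1.22), BTG2 (−0.95), EPAS1 (−0.61), RNASE2 (−0.76), OPN3 (−0.73), CD38 (−0.77), INAVA (0.75), IL7R (−1.08), ATP10A (−0.89), CHI3L1 (−0.98), BCL11A (0.74), HS6ST1 (−0.72), RPS27L (−0.80), IL31RA (−1.09), LILRA1 (−0.97). Of the 43, 9 were called whichever of the 12 libraries was left out, and HLA-DRA in 6, CIITA in 5, CCR2 in 7 and S100A9 in 7 of the 12 fits.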

How the results depend on the processing

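Calls in ATRA+DOX against ATRA went from 713 to 331 with the 12 libraries thinned to the depth of the smallest, and ran from 264 to 1028 when 1 library was left out. Interaction calls went from 43 to 24 with scaling by library size alone, 189 with no filter on low counts, 9 at equal depth and 109 in DESeq2, and ran from 10 to 747 when 1 library was left out. Calls in DOX against untreated went from 2446 to 1573 with those groups fitted alone, 77 with the mitochondrial ribosomal RNA term and 1154 at equal depth, and ran from 659 to 4326 when 1 library was left out. The cause of these shifts was not tested. Thinning and leaving out libraries reduce the data by construction, while calls rose in some fits that left out a library. NRIP1 passed in every alternative. No log2 change of a called gene named by the rule changed sign, and 46 of 110 such calls passed in every alternative that gave an adjusted p. Same-numbered libraries of the ATRA and ATRA+DOX groups deviated from their group means with correlations of -0.0298, 0.149 and -0.0957. ATRA replicate 1 with ATRA+DOX replicate 3 gave 0.14, and ATRA replicate 3 with ATRA+DOX replicate 1 gave 0.126. The other differently numbered pairs lay between -0.13 and -0.0316. Such small correlations cannot decide whether libraries were paired. With the replicate block 729 genes were called in ATRA+DOX against ATRA, 54 in the interaction and 2349 in DOX against untreated. The smallest library, DOX replicate 3 with 2685984 counts, limits what thinning to equal depth can resolve. The interaction was not run for compared groups alone or for the 6 libraries thinned alone.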
